A study of Mus musculus with 3 samples.

Results

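A set of 10 Notch pathway genes was followed in 5TGM1.BRE, a mouse myeloma line that resists bortezomib and can engraft in mice. They were the receptors Notch1, Notch2, Notch3 and Notch4, the ligands Jag1, Jag2, Dll1 and Dll4, the DNA-binding protein gene Rbpj and the target gene Hes1. They were chosen by symbol for their part in a contact pathway between myeloma cells and marrow stroma, and all 10 were found among the 24467 genes of the count tables. Polyadenylated RNA was sequenced in 3 libraries that form 1 group. The cells came from the bone marrow of C57BL/KaLwRij mice, were kept in culture with 20% serum and 10 nM bortezomib, an inhibitor of the proteasome, and were off the drug for at least 72 h when RNA was taken from 10000000 cells per sample. The parental 5TGM1 cells and the resistant line that had not passed through mice were not analysed here, so no difference between resistant and sensitive cells was measured. The cell type label of replicate 1 does not mention culture in bortezomib, unlike those of replicates 2 and 3, while its title and growth protocol name the drug. Nothing in the labels says whether the replicates were separate cultures, so the SDs and p-values cover the spread between these libraries, which may be technical.

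Notch receptors are single-pass membrane proteins that bind Jagged or Delta-like ligands on a neighbouring cell. Binding allows an ADAM protease and then gamma-secretase to cut the receptor, and the freed intracellular domain enters the nucleus, where it joins RBPJ and a Mastermind coactivator on target genes such as Hes1. In lymphocytes, Notch2 is known for its role in marginal zone B cells and Notch1 for its role in the choice of the T cell fate. In myeloma, Jagged ligands on tumour cells and Notch ligands on stroma have been studied as a route of contact.

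Depth was 62303493, 45705994 and 59402218 gene counts in replicates 1, 2 and 3. Where a gene has 0 counts, its level may still be as high as 3 counts, which is 0.0482, 0.0656 and 0.0505 CPM (counts scaled to a total of 1000000 per library). Such limits and the intervals below cover counting error only. Levels are given in CPM within a gene, and in CPM per kilobase of exon wherever genes are compared, with the length of all annotated exon bases of a gene (GENCODE M21, assembly GRCm38) as its length. Replicate 3 stood apart: 51.6% of 11308 tested genes differed between it and the other libraries by edgeR's quasi-likelihood test (Benjamini-Hochberg adjusted p under 0.05), against 0.0796% for replicate 1 and 0.0531% for replicate 2. Of 12 plasma cell markers, 10 were at 1 CPM or more in every library. Of 18 stromal and endothelial markers, which stand for cells known to carry Notch ligands, only Pecam1 was, and Col1a2, Lum and Emcn had 0 counts. None of 12 myeloid and 10 T and NK cell markers reached that limit.

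The upstream stretches of 3 receptor genes are shown because the receptors differed widely in level and also in their number of CG pairs. RefSeq start sites (GRCm38.p6) were found for 9 of the 10 members, all but Hes1. The 250 bases before the start of Notch2, at chr3:98013288-98013537 on the plus strand, hold 34 CG pairs. Those of Notch1, at chr2:26503823-26504072 on the minus strand, hold 16, and those of Notch4, at chr17:34564045-34564294 on the plus strand, hold 4. The Notch1 window lies inside the gene as GENCODE annotates it, which begins at base 26516663 on that strand. Annotated exons cover 11 of the 250 bases for Notch2, 2 for Notch1 and 27 for Notch4. The median over 32851 windows of the same kind is 6. Each is written 5′ to 3′ on the strand of its gene, with CG pairs in capitals.
Notch2: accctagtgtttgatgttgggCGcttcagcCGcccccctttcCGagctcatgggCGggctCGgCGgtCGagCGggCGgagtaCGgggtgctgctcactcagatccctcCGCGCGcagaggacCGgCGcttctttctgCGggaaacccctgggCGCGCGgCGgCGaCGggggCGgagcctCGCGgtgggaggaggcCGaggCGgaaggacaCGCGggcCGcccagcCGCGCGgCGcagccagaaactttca
Notch1: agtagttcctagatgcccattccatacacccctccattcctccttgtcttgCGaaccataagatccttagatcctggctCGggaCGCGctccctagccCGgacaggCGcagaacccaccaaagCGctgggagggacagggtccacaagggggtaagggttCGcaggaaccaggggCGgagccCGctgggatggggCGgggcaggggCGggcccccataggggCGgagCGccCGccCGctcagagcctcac
Notch4: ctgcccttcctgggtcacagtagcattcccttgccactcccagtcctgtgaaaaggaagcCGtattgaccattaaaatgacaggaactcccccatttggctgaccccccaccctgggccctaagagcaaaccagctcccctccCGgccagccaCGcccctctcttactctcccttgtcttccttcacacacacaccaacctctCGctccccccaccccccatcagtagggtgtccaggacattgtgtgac
The order of CG pairs and the order of transcript levels among these 3 genes were the same, but Notch3, with 17 CG pairs, lay near Notch4 in level. The order did not hold over the 9 members with a start site either. Jag2, with 54 CG pairs, was at 0.342 CPM per kilobase, against 2.07 for Notch2, and Jag1, with 20, had 1 count over all libraries. Annotated exons cover all 250 bases of the Jag2 window and 124 of the Jag1 window, so the windows compared are not all of like kind.

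RBPJ is known to bind DNA at a core of TGGGAA. That core, which also lies within the longer form GTGGGAA, was searched on both strands of these windows, where 21.6% of all 32851 windows hold it and 2.77% hold it at least 2 times. Among the 9 members searched, which do not include Hes1, the core was found in the Rbpj gene alone, in both of its windows. That was 2 of 11 windows, a share near the 21.6% of all windows, so it does not set the members apart. GTGGGAA, found in 5.42% of all windows, was in none of the 11 windows of these members. The windows of the Rbpj gene overlap. They lie inside the gene as GENCODE annotates it, which begins at base 53466152. Annotated exons of Rbpj cover 132 of the 250 bases of the first window and all 250 of the second. The first, at chr5:53590096-53590345 on the plus strand, holds both cores, shown here in capitals within 26 bases each, from chr5:53590187-53590212 and chr5:53590271-53590296. TTCCCA is the core read on the other strand.
Rbpj core at base 102: tgaaaaaggcTGGGAAcccgcggcga
Rbpj core at base 186 (other strand): cgctcgcattTTCCCAggacccctcc
The core at base 186 also lies in the second window, and so within annotated exon. A match describes the letters only, and binding was not measured.

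Hes1 was the most abundant member. Hes1 encodes a basic helix-loop-helix repressor that Notch induces in many tissues, with its gene at chr16:30064384-30067796 (plus strand). It was at 43.4, 47.9 and 55.4 CPM in replicates 1, 2 and 3, from 2706, 2191 and 3292 counts. Per kilobase it averaged 24.0 ± 2.97 CPM (SD, n = 3), and 22.4 CPM without replicate 3. By that level 10.2% of 24159 genes with a length stood above it. Its counts varied between libraries by 45.3 times the variance of independent counts, where the median over 11867 genes with 20 or more counts was 6.04. This ratio grows with the number of counts, so it does not show that Hes1 varied more than genes with fewer counts. The coefficient of variation of Hes1 in CPM was 12.4%, where those of the other tested members ran from 7.76 to 23.1%. Among these, Notch4, at 22.1%, had at most 18 counts in a library, where counting error is large.

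Among the receptors, Notch2 had the highest level. Notch2, at chr3:98013527-98150361 (plus strand), was at 22.6, 24.1 and 20.1 CPM in replicates 1, 2 and 3, or 2.07 ± 0.186 CPM per kilobase (SD, n = 3). Notch1, at chr2:26457903-26516663 (minus strand), was at 2.46, 3.08 and 1.94 CPM, or 0.175 ± 0.0404 CPM per kilobase (SD, n = 3). Notch2 exceeded Notch1 in all 3 libraries, with no overlap. The log2 ratio per kilobase was 3.58 ± 0.21 (SD, n = 3), a 12.0-fold difference. Its size depends on the length used: it was 3.04 with the longest transcript and 3.18 without lengths. Notch3, best known from vascular smooth muscle, had 13, 11 and 8 counts, and Notch4, best known from endothelium, had 12, 12 and 18 counts. Per kilobase they averaged 0.0241 ± 0.00672 and 0.0314 ± 0.00693 CPM (SD, n = 3 for each), and their ranges overlapped. Notch2 shares 541 exon bases with Gm42820, an annotated gene on the same strand, so reads there cannot be told apart whatever the strand setting. The opposite strand of Notch1 and of Notch3 carries annotated noncoding genes that share exon bases with them. The sources used here do not say whether counting used strand, so reads of these genes cannot be told apart from those of the receptors either.

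Jag2 was the leading ligand, while Jag1 and Dll1 were near the limit of detection. Jag2, at chr12:112907819-112929776 (minus strand), was at 2.23, 2.23 and 2.69 CPM in replicates 1, 2 and 3, or 0.342 ± 0.0383 CPM per kilobase (SD, n = 3). Dll4, a ligand of endothelium and of the thymus, had 12, 6 and 8 counts, or 0.0397 ± 0.00895 CPM per kilobase (SD, n = 3). Jag1, the other Jagged ligand, had 0, 0 and 1 counts. Dll1, the ligand that marginal zone B cells need on stroma, had 1, 0 and 0 counts. For each of these genes the single count over all libraries is a level of 0.00597 CPM, with an exact Poisson 95% interval of 0.000151 to 0.0333 CPM. The Jagged genes together exceeded the Delta-like genes by 3.09 ± 0.47 on the log2 scale per kilobase (SD, n = 3). In effect this sets Jag2 against Dll4, which had at most 12 counts in a library. Dll1 and Dll4 also share exon bases with annotated noncoding genes on the opposite strand. The one at Dll4, Gm14207, had 0 counts in every library, while the one at Dll1 was not among the counted genes.

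The receptors together were more abundant than the ligands together. Summed per kilobase, the receptors were at 2.32, 2.51 and 2.06 CPM in replicates 1, 2 and 3, and the ligands at 0.374, 0.354 and 0.425 CPM. The log2 ratio was 2.58 ± 0.28 (SD, n = 3), or 5.97-fold, with receptors higher in each of the 3 libraries. Rbpj, the gene of the DNA-binding protein through which all Notch receptors act, lies at chr5:53466152-53657362 (plus strand). It was at 14.1, 12.9 and 12.1 CPM, or 1.02 ± 0.0791 CPM per kilobase (SD, n = 3). Rbpj has annotated processed pseudogenes on chromosomes 4 and 6, so its counts are uncertain where reads fit several copies. Hes1 exceeded Rbpj by 4.55 ± 0.29 on the log2 scale per kilobase (SD, n = 3), and by 1.91 without lengths. For each of these 4 ratios p was 0.25 by an exact permutation test that flips signs, two-sided, and 0.25 after Benjamini-Hochberg adjustment. With 3 libraries no smaller p can occur. The ratio of Jag1 to Jag2 was not formed, since Jag1 had too few counts.

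**Figure D1:**
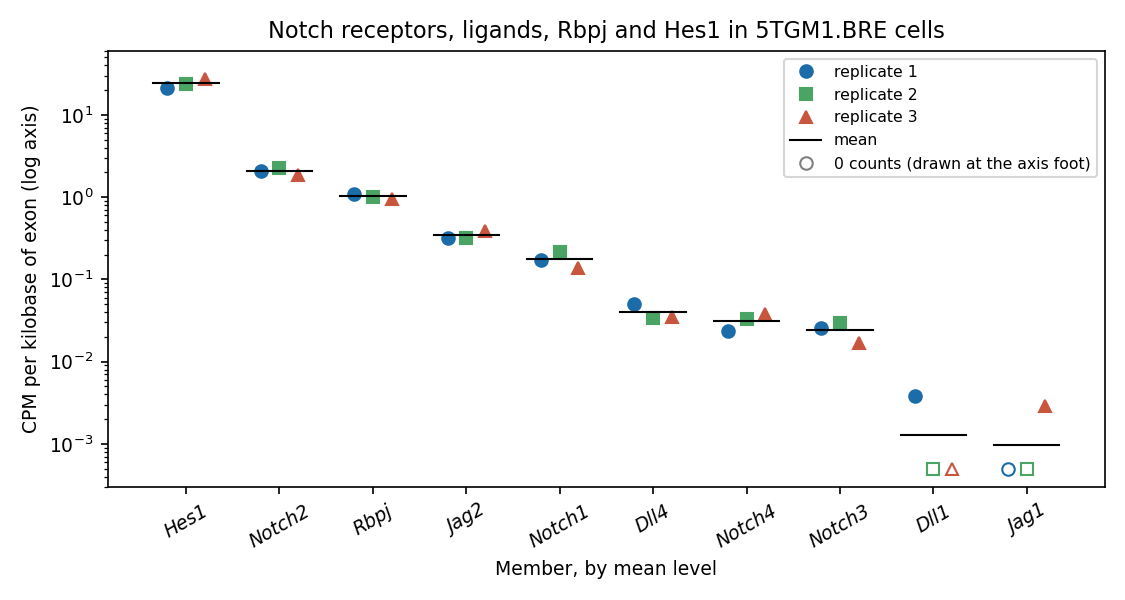
Level of each of the 10 members in CPM per kilobase of exon (log axis) in the 3 libraries, with a line at the mean and open symbols at the foot of the axis for 0 counts. Hes1 lies between 21.3 and 27.2, Notch2 between 1.87 and 2.23, and Jag1 and Dll1 each have a count in 1 library only.

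In the order of levels per kilobase, Hes1 came first, followed by Notch2, Rbpj, Jag2, Notch1, Dll4, Notch4, Notch3, Dll1 and Jag1. Of the 7 neighbouring pairs with more than 3 counts throughout, 5 kept their order in every library: each pair from Hes1 down to Notch1 over Dll4. Dll4 and Notch4, with a log2 ratio of 0.34 ± 0.63, and Notch4 and Notch3, with 0.40 ± 0.68, did not differ beyond the spread between libraries (SD, n = 3 for each). For each of the 5 ordered pairs p was 0.25 by the same exact permutation test (0.35 adjusted over 7 pairs), again the smallest possible. For Dll4 and Notch4 it was 0.75, and for Notch4 and Notch3 it was 0.50, by the same exact test (0.75 and 0.583 adjusted). The place of Rbpj depends on its length: it has 12 annotated transcripts, and with the longest of them (5485 bases) in place of all exon bases (12750) the log2 ratio of Notch2 to Rbpj was -0.16, against 1.02. The pairs from Jag2 to Notch1 and from Dll4 to Notch4 likewise changed direction without lengths, at -0.04 and -0.72. In all, 5 of the 10 members, or Hes1, Notch2, Rbpj, Jag2 and Notch1, were at 1 CPM or more in every library, where 40.9% of all genes were.

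The genes whose levels per kilobase ran closest to the leading member of each role over the 3 libraries were named by the smallest root mean square log2 difference. They were Gm14326 (0.024) and Tmem104 (0.033) for Notch2, BC065397 (0.033) and Aplp1 (0.055) for Jag2, Tcam1 (0.027) and Gm13544 (0.038) for Rbpj, and Gm17066 (0.034) and Stx4a (0.035) for Hes1. With 3 libraries such closeness is a description of level alone.

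Replicate 3 had more Hes1 and less Notch1 and Notch2 than the other libraries. Hes1 was at 55.4 CPM in replicate 3, against 43.4 and 47.9 CPM in replicates 1 and 2, a log2 difference of 0.31 ± 0.05 (SE) with an adjusted p of 3.01e-09 by edgeR's quasi-likelihood test. Notch2 was at 20.1 CPM in replicate 3, against 22.6 and 24.1 CPM in replicates 1 and 2, a log2 difference of -0.18 ± 0.07 (SE, edgeR adjusted p = 0.0191). Notch1 was at 1.94 CPM in replicate 3, against 2.46 and 3.08 CPM in replicates 1 and 2, a log2 difference of -0.47 ± 0.17 (SE, edgeR adjusted p = 0.011). In each of these genes the value of replicate 3 lay outside those of the other libraries. The genes were picked by their difference in replicate 3, so this adds no support. The size for Notch1 rested on the library it was set against: it was -0.31 without replicate 2 and -0.64 without replicate 1. Jag2, at 0.30 ± 0.16, Rbpj, at -0.13 ± 0.08, and Notch4, at 0.47 ± 0.45, did not pass the test (log2 difference ± SE, edgeR adjusted p = 0.101, 0.16 and 0.399). Thus 1 of 6 tested members was higher and 2 were lower in replicate 3, where 24.8% of all tested genes were higher and 26.8% lower. The 3 of 6 members that differed are a share near the 51.6% of all genes. DESeq2 gave an adjusted p to 3 of these members, of which Hes1 was called higher, where of 9208 genes 13.4% were higher, 19.3% lower and 32.8% either. The log2 differences of Notch2 and Notch1 were about as large by DESeq2, at -0.19 and -0.49. Notch2 was not called, and Notch1, Jag2 and Notch4 had no adjusted p. Notch3, Dll4, Dll1 and Jag1 did not pass the filter on low counts and were not tested.

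Transcript length moved with these differences. Over all tested genes, long transcripts were lower and short ones higher in replicate 3. Of 1070 genes within 20% of the exon length of Notch2 (10782 bases), 61.9% were lower in replicate 3, with a median log2 difference of -0.20, close to the -0.18 of Notch2. Of 528 genes near the length of Notch1 (14232 bases), 72.7% were lower, with a median of -0.27, against -0.47 for Notch1. Of 1261 genes near the length of Hes1 (2037 bases), 51.4% were higher, with a median of 0.18, against 0.31 for Hes1. With the trend on length removed, Hes1 stayed higher, at 0.15 ± 0.05 (log2, SE, edgeR adjusted p = 0.0379). Jag2 then passed the test at 0.43 ± 0.14 (log2, SE, edgeR adjusted p = 0.0285), while Notch1, at -0.22 ± 0.17, and Notch2, at 0.03 ± 0.07, did not (adjusted p = 0.349 and 0.765). In that fit 2 of the 6 tested members were higher and 0 lower, against 16% and 15.6% of all tested genes, or 31.6% in either direction. The summed CPM of the stromal and endothelial markers was 7.17 in replicate 3, against 6.28 and 6.45 in replicates 1 and 2. Pecam1 made up most of it, at 5.82 CPM in replicate 3, against 5.09 and 5.03 CPM in replicates 1 and 2. Of the 18 markers 3 could be tested, with log2 differences of 0.23 for Pecam1, -0.14 for Lepr and -0.29 for Col1a1 (edgeR adjusted p = 0.0815, 0.804 and 0.433). With the length trend removed 1, Pecam1, was called higher (edgeR adjusted p = 0.0199). The summed CPM of the myeloid markers was 0.741 in replicate 3, against 0.417 and 0.394 in replicates 1 and 2. Of these 12 markers, 11 had under 10 counts in every library. The T and NK cell markers summed to 0.354 CPM in replicate 3, between the 0.514 and 0.263 CPM of replicates 1 and 2. None of the myeloid, T and NK cell markers could be tested. A part of any of these cell types in the higher Hes1 and Jag2 was not tested.

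**Figure D2:**
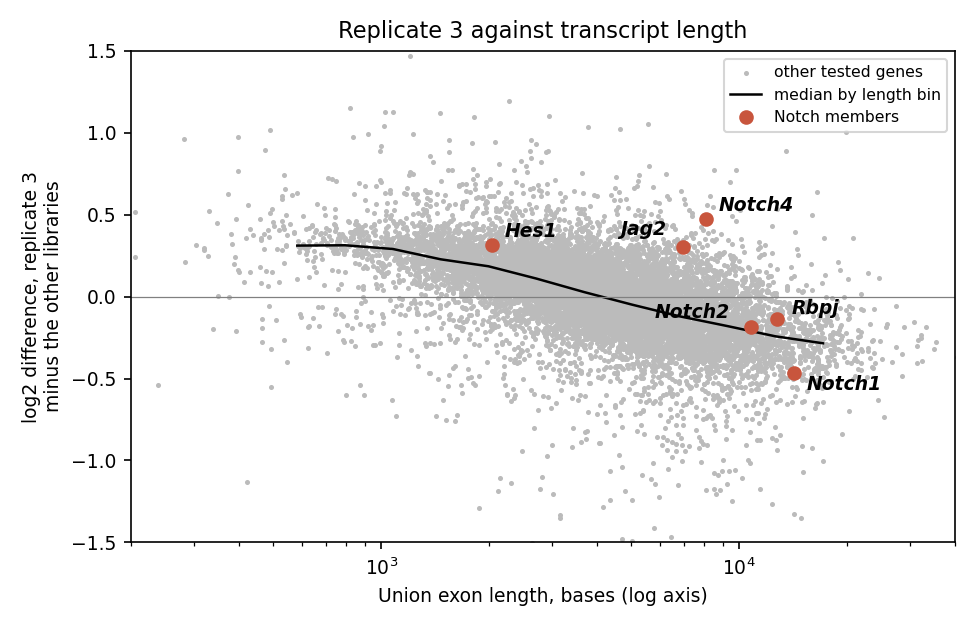
Log2 difference of replicate 3 from the other libraries against exon length (log axis) for tested genes, with the 6 tested members in red and the median by length bin as a line; 129 of 11238 genes lie outside the axes. Notch2 lies on the line, Hes1, Jag2, Notch4 and Rbpj lie above it, and Notch1 lies below it.

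No tested member passed the test for replicate 1 or replicate 2. By edgeR's quasi-likelihood test, 0 of 6 members passed for replicate 1 and 0 of 6 for replicate 2. Of all genes, 0.0796% and 0.0531% passed. At an unadjusted p under 0.05 the members' counts were also 0, where 202 and 40 of all 11308 tested genes passed for replicates 1 and 2. They were 0 by DESeq2 too, where 0.00615% of genes passed in each comparison, and with the length trend removed, where 0.0354% passed for replicate 1 and 0.0177% for replicate 2. The lowest adjusted p was 0.999 for replicate 1 and 1.000 for replicate 2. The SEs were wider in these comparisons, at 0.19 for Hes1 in replicate 1 against 0.05 in replicate 3 (log2 scale). Here replicate 3, which stood apart, was among the libraries compared against, and the spread between those sets the SE. The comparisons also reuse the same libraries. The lack of calls for replicates 1 and 2 therefore does not show that the members were stable there.

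**Figure D3:**
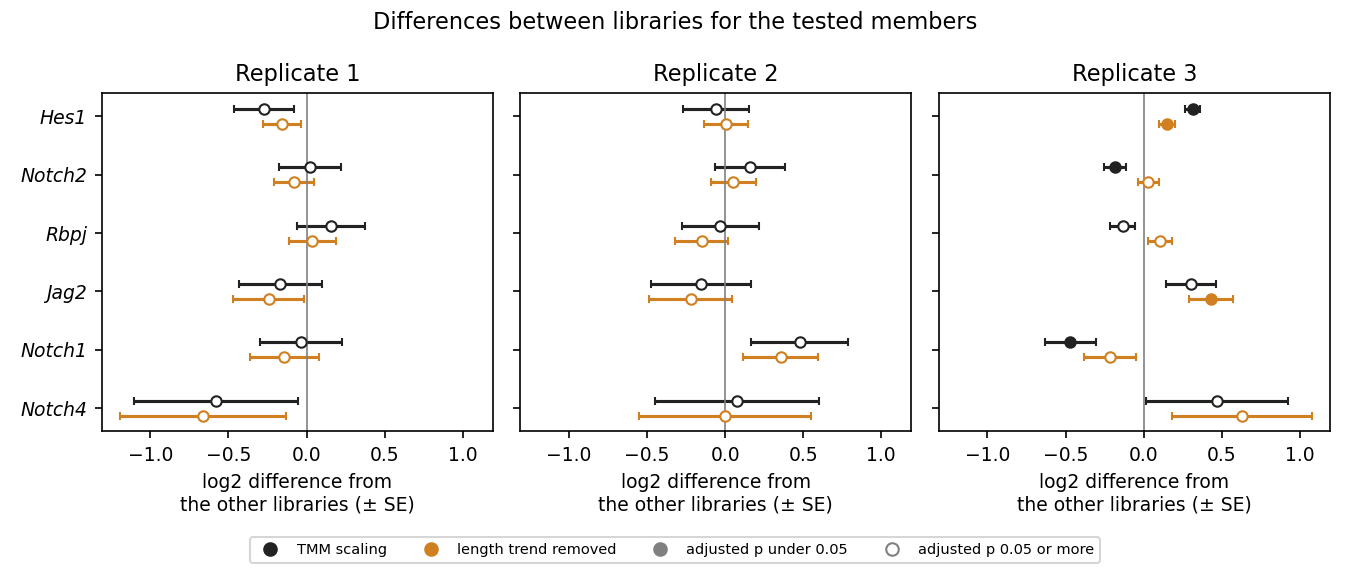
Log2 difference of each library from the other libraries (± SE) for the 6 tested members, as scaled by TMM (black) and with the trend on length removed (orange); filled symbols have an adjusted p under 0.05. Filled symbols occur in replicate 3 only, for Hes1, Notch2 and Notch1 in black and for Hes1 and Jag2 in orange.

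Several genes whose products act on the receptors had higher levels per kilobase than any receptor. Of the 71 other pathway genes listed, 44 were at 1 CPM or more in every library. Of 9 genes for receptor cleavage, 8 were. Adam10, the protease of the ligand-induced cut, led this list with 125 ± 12.6 CPM per kilobase, followed by Ncstn, the nicastrin subunit of gamma-secretase, with 75.5 ± 3.2 and Adam17 with 27.1 ± 2.93 (SD, n = 3 in all cases). Of 7 genes for receptor maturation, 5 were. Mfng, a Fringe enzyme that extends sugars on the receptor and so tunes its choice of ligand, was at 29.1 ± 2.09 CPM per kilobase, Pofut1, which adds the first sugar, at 6.93 ± 0.501 and Furin, a protease that processes the receptor on its way to the surface, at 6.28 ± 0.531 (SD, n = 3 for each). The related Fringe gene Lfng had 0 counts in every library, and Poglut1 had 2, 1 and 1 counts.

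Both Mindbomb ligases, which tag ligands for the uptake that pulls on the receptor, were expressed. Mib2 was at 5.85 ± 0.33 and Mib1 at 1.89 ± 0.479 CPM per kilobase, while Neurl1b was at 0.0795 ± 0.0124 (SD, n = 3 for each). Of 9 genes for receptor turnover, 7 were at 1 CPM or more in every library. Nedd4, a ubiquitin ligase, was at 44.4 ± 8.78, Fbxw7, which targets the active intracellular domain for degradation, at 20.9 ± 0.778, and Numb, an antagonist of Notch, at 8.36 ± 0.697 CPM per kilobase (SD, n = 3 for each). The remaining ligands of the list, Dll3, Dlk1, Dner and Dlk2, did not reach 1 CPM in any library, and Dlk2 had 0 counts.

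Nuclear partners of Rbpj were present on both the activating and the repressing side. Of 8 coactivators 7 were at 1 CPM or more in every library, with Snw1 at 40.5 ± 0.218, Kat2a at 24.2 ± 1.03 and Kat2b at 9.44 ± 0.913 CPM per kilobase the highest (SD, n = 3 in all cases). Of 14 corepressors 11 were, led by the histone deacetylase genes Hdac2 at 61.9 ± 2.11 and Hdac1 at 17.2 ± 0.928 and by Ctbp1 at 21.3 ± 0.637 CPM per kilobase (SD, n = 3 for each). Many of these proteins also serve other transcription factors.

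Targets of Notch were uneven. Of 9 other Hes and Hey genes 2 were at 1 CPM or more in every library. Hes6, which opposes Hes1 in other tissues, was at 6.6 ± 0.777, Hey2 at 0.585 ± 0.0142 and Hey1 at 0.322 ± 0.0515 CPM per kilobase (SD, n = 3 for each), while Heyl and Helt had 0 counts and Hes5 had 1, 0 and 0. Nrarp, a Notch target and feedback inhibitor, and Cr2, a target in mouse B cells, had 0 counts in every library, which allows up to 0.0179 CPM over all 3 for each, and Dtx1, another target in B cells, had 0, 1 and 1. Myc, which many pathways control, was at 171 ± 2.83 CPM per kilobase, Ccnd1 at 1.55 ± 0.17 and Ptcra, a target in thymocytes, at 0.0587 ± 0.0298 (SD, n = 3 for each). Hes1 thus stood 3.64-fold above Hes6 per kilobase, the next of its family by level.

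Between libraries, 6 of 47 tested pathway genes were higher and 21 lower in replicate 3 by edgeR's quasi-likelihood test, where 24.8% of all tested genes were higher and 26.8% lower. The share that differed was near the 51.6% of all genes. By direction, however, the 47 were lower more often and higher less often than all tested genes. Their median log2 difference was -0.09, against 0.01 over all tested genes. Mib1 was at 14.6 CPM in replicate 3, against 23.2 and 24.1 CPM in replicates 1 and 2 (log2 difference -0.66 ± 0.07, SE, edgeR adjusted p = 4.98e-18). Hes6 was higher, at 13.4 CPM in replicate 3, against 10.6 and 11.7 CPM in replicates 1 and 2 (log2 difference 0.30 ± 0.08, SE, edgeR adjusted p = 0.000934). With the length trend removed, 6 were higher and 10 lower, where 16% of all tested genes were higher and 15.6% lower, again a share near that of all genes. Mib1 then remained lower, at -0.45 ± 0.07, while Hes6, at 0.11 ± 0.08, did not pass (log2 difference ± SE, edgeR adjusted p = 0.000113 and 0.295).

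**Figure D4:**
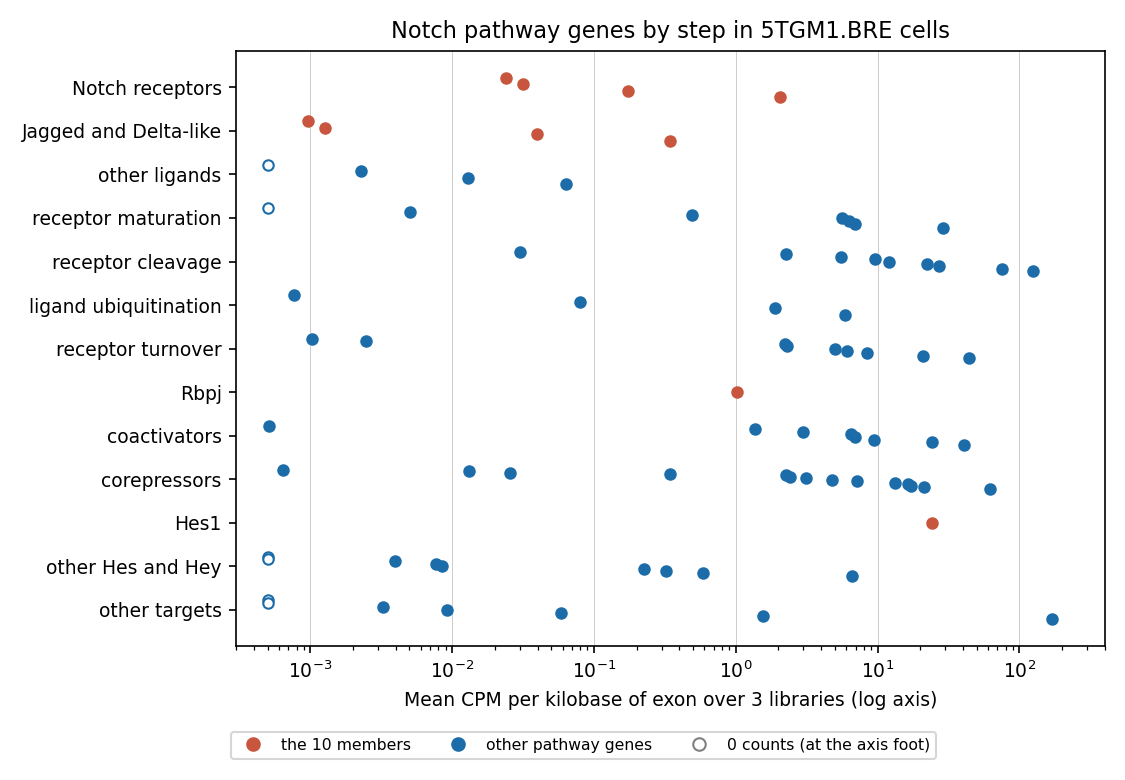
Mean CPM per kilobase of exon over the 3 libraries (log axis) for the 10 members in red and 71 other pathway genes in blue, by step of the pathway, with open symbols for 0 counts. The receptors reach 2.07 and the ligands 0.342, while the cleavage genes reach 125 and Hes1 lies at 24.0.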

How the data were processed

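For each library the authors deposited a table of raw counts by gene symbol, made with bcl2fastq, cutadapt 4.2 and STAR on the mouse genome mm10, per the submitters' processing notes. The counting program, its annotation and its strand setting are not stated in any source used here. CPM was computed from the total of each library, and lengths came from GENCODE M21, which gave a length to 98.7% of the symbols.

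Each library was set against the other 2 over all genes with edgeR 4.0.16 in R 4.3.3 (TMM, filterByExpr, glmQLFit, 1 residual degree of freedom), so the single library is assumed to vary like the others, and its SE is the log2 difference divided by the square root of F. Alternatives were RLE or no scaling, no filter, DESeq2 1.42.0, removal of a loess trend on length (span 0.3), other lengths and limits, and leaving out each replicate. The scripts were tested on simulated data. Levels and exact tests used SciPy 1.17.1 and pandas 2.3.3 under Python 3.11.15.

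The members, lists and tests were chosen with earlier results of these data known. Ratios of members were tested by flipping signs over the 3 libraries (exact permutation, two-sided). Members are all given; of each other list, the 3 highest per kilobase and up to 3 genes at 0 counts are named by rule. Dtx1, Poglut1, Hes5, Lepr, Col1a1 and the Mib1, Hes6 and Fcer2a differences were chosen after their values were seen.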

Additional observations from a re-analysis of the deposited data

How the results depend on the processing

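Of the 6 tested members, 3 differed in replicate 3 under RLE scaling, no scaling and no filter as under TMM, and 2 with the length trend removed. By DESeq2, which gave an adjusted p to 3 of the members, 1 was called, Hes1. With the length trend removed, log2 differences changed sign for Notch2 (-0.082) in replicate 1, for Notch4 (-0.0034) and Hes1 (0.0074) in replicate 2, and for Notch2 (0.030) and Rbpj (0.10) in replicate 3. Notch2 had an adjusted p of 0.234 by DESeq2 in replicate 3, with a log2 difference of -0.19 against -0.18 by edgeR. Notch1, at -0.49 against -0.47, and Jag2 and Notch4 had no adjusted p. Across the libraries left out, the log2 difference of Hes1 in replicate 3 was 0.24 to 0.38, and the log2 ratio of Dll4 to Notch4 was -0.020 to 0.57. Without lengths that ratio was -0.72 and the ratio of Jag2 to Notch1 was -0.043; the ratio of Notch2 to Rbpj was -0.16 with the longest transcript. The 4 ratios of roles kept their direction under every length and without each replicate. The number of members at 1 CPM or more was 5, 4 at 2 CPM and 6 at 10 counts. With 1 library against 1 there are no residual degrees of freedom, so differences without a replicate have no test. No paired analysis was possible because the study has 1 group. Counts of 18 or fewer for Notch3, Notch4 and Dll4 limit what their order can show.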

Other observations

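Fcer2a, which encodes CD23 and is known as a NOTCH2 target in human B cells, had a coefficient of variation of 59.6% between the libraries in CPM, against 7.76 to 23.1% for the 6 tested members. It was at 6.48 CPM in replicate 1, against 1.62 and 4.14 CPM in replicates 2 and 3, a log2 difference of 1.12 ± 0.24 (SE, edgeR adjusted p = 0.00315). It was at 1.62 CPM in replicate 2, against 6.48 and 4.14 CPM in replicates 1 and 3, a log2 difference of -1.72 ± 0.33 (SE, edgeR adjusted p = 0.000394). Neither call held with the length trend removed, at 1.17 ± 0.27 and -1.71 ± 0.30 (log2 difference ± SE, adjusted p = 0.446 and 0.0767). Fcer2a is in the list of B cell genes, of which Cd79b, at 64.3 ± 4.47 CPM per kilobase, and Ms4a1, at 0.357 ± 0.0491, were the others at 1 CPM or more in every library (SD, n = 3 for each), and Bcl6 had 0 counts. Notch2 was at 22.6 and 24.1 CPM in the 2 libraries where Fcer2a was highest and lowest. A part of Notch2 in the Fcer2a differences was not tested.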
